A study of Homo sapiens with 50 samples.

Results

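A set of 9 genes known as transcriptional targets of the tumour suppressor p53 were followed by name in RNA-seq data of HepaRG, a human liver cell line that matures into hepatocyte-like and biliary-like cells. They were chosen by gene name from the deposited table and are 9 of its 79112 genes and loci: CDKN1A, BTG2, MDM2, PHLDA3, BBC3, BAX, FAS, TP53INP1 and SESN1. The cells had been kept in general purpose medium to day 8 and were exposed from day 8 to day 14 to mesotrione or isoxaflutole, herbicides that block the plant enzyme HPPD, or to quizalofop-p-ethyl, a herbicide that blocks plant acetyl-CoA carboxylase. Each compound was given at 0.1 uM, 10 uM and 1 mM, and control cells had none. The labels give the same test medium for all 10 groups, with 2% serum and 1% DMSO, so the controls carried the solvent too. There were 5 libraries in each group, all from 1 cell line, and 1 library of quizalofop-p-ethyl 10 uM was left out, which left 49.

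The p53 protein is a transcription factor that is kept low by MDM2, an enzyme that marks it for destruction, and it accumulates when DNA damage or other stress blocks that turnover. It then binds paired copies of a short DNA motif and raises genes that stop the cell cycle, repair DNA or start cell death, MDM2 among them, which closes a feedback loop. Several of these genes are also raised by other stress pathways, so their RNA alone does not report p53 activity.

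The 49 libraries summed to 541900 to 801700 FPKM (fragments scaled by transcript length and library size), and 7080000 to 33880000 fragments were estimated per library. Between 16996 and 20321 genes reached 1 FPKM in a library, against 6782 in the library left out, for which 3720000 fragments were estimated. The control libraries carried the hepatocyte label, with ALB, which encodes albumin, at 8217 to 10318 FPKM. The biliary marker KRT19 averaged 534 ± 42.0 FPKM in control (SD, n = 5), whereas EPCAM, another biliary marker, was at 0 in 37 of the 49 libraries. Of the mesenchymal markers, LUM, COL3A1, DCN and COL1A1 had medians of 28.3, 16.6, 3.91 and 3.10 FPKM over the 49 libraries, while COL1A2 was at 0 in 29 of them. Of the leukocyte markers, CD68, CD14 and LYZ had medians of 7.43, 3.51 and 2.29 FPKM, while PTPRC was at 0 in 26 libraries.

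Sequences that match the p53 response element consensus were looked for in RefSeq promoter windows (GRCh38.p14, 250 bases before to 50 bases after a start site), since these are the sites through which p53 acts on its targets. The motif is 20 bases long, a pair of 10-base parts with no spacer. It is palindromic, so both strands were read at once, and up to 3 mismatches were allowed. A core within the motif was also required, which the window of BBC3 lacked. Stretches without that core were not counted or marked, so other stretches near the consensus may lie in these windows. Windows were present for 7 of the 9 genes, 14 windows in all, and 4 windows of 3 genes held a match, against 392 of 35116 windows of all genes (1.12%). The matching windows of MDM2 overlap and hold the same match. The 9 genes were chosen as known p53 targets, so these shares are a description. Sites outside the windows were not looked for. The match of MDM2 lay at chr12:68808923-68808942 on the plus strand, had 2 mismatches, ended 75 bases before the RefSeq start at 68809017 and lay in no annotated exon. The match of FAS (chr10:88991309-88991328, plus strand, 2 mismatches) lay 103 bases before a start, within annotated exons of FAS and, on the opposite strand, of ACTA2. The match of SESN1 (chr6:109009018-109009037, minus strand, 3 mismatches) lay 30 bases before a start. These matches describe the letters of each window and show no binding. The 3 stretches are given 5′ to 3′ with the match in capitals, at chr12:68808883-68808982, chr10:88991304-88991333 and chr6:109008989-109009077.
MDM2: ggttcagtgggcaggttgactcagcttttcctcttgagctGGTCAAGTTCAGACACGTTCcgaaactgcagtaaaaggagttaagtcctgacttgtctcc
FAS: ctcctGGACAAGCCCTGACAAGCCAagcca
SESN1: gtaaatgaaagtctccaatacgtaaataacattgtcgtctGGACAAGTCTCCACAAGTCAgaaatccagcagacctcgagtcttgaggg

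At 1 mM quizalofop-p-ethyl, 3 of the 9 genes rose and 3 fell. CDKN1A, PHLDA3 and BBC3 averaged 1.72, 2.87 and 1.98 times their control FPKM, while TP53INP1, SESN1 and BTG2 averaged 46.8%, 65.4% and 87.8% of it. MDM2, BAX and FAS did not pass the test. The test was limma on log2(FPKM + 1) over all 24222 genes tested, with Benjamini-Hochberg adjustment and a threshold of 0.05, and fold changes below are on that scale, which understates the change of low genes. Against the 6 of 9 genes called here stand 32.7% of all genes tested in the same comparison, 13% higher and 19.8% lower. All genes tested were filtered from a table that also holds unnamed loci, whereas the 9 are named genes. The share among named genes alone may therefore differ. The median log2 fold change was 0.18 over the 9 genes and -0.08 over all genes tested. All 9 genes passed the filter on low values.

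**Figure D1:**
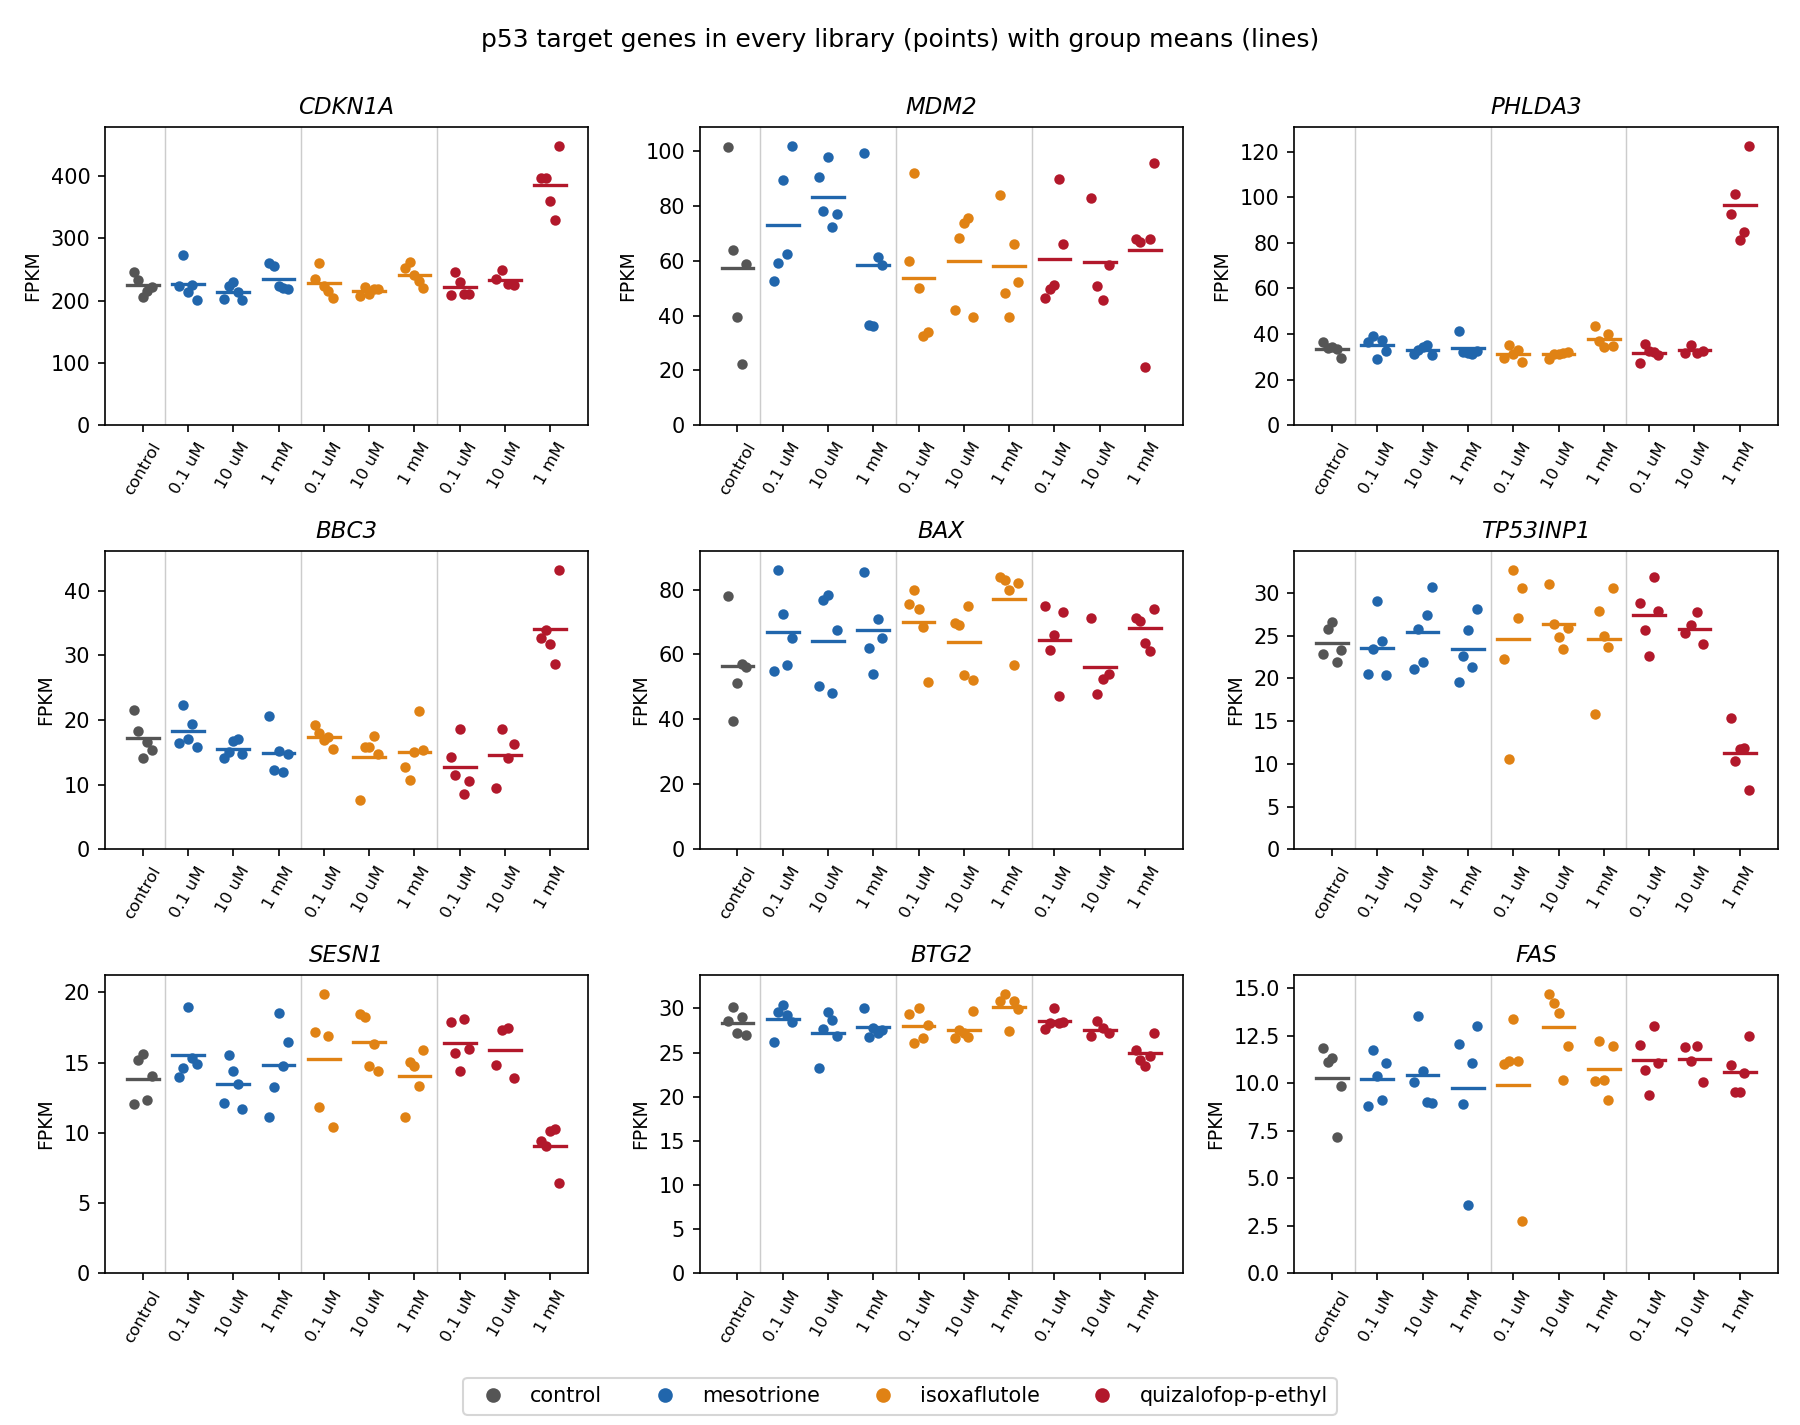
FPKM of the 9 genes in the 49 libraries (y axes, from 0), by group (x axis, control and then each compound from low to high dose); each point is a library and each line a group mean. The 5 libraries of quizalofop-p-ethyl 1 mM sit above all control libraries for CDKN1A, PHLDA3 and BBC3 and below them for TP53INP1 and SESN1.

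Among the genes that stop the cell cycle, CDKN1A (chr6:36676460-36687339, plus strand, GRCh38) encodes p21, which blocks cyclin-dependent kinases. It had 397, 397, 359, 329 and 448 FPKM in the 5 libraries of quizalofop-p-ethyl 1 mM, against 246, 233, 206, 216 and 222 FPKM in control. The groups did not overlap, and the log2 fold change was 0.77 (95% CI 0.62 to 0.93, adjusted p = 1.67e-11, limma). BTG2 (chr1:203305491-203309602, plus strand) encodes an antiproliferative protein that works with the machinery removing poly(A) tails from mRNA. It had 25.3, 24.1, 23.5, 24.6 and 27.2 FPKM in quizalofop-p-ethyl 1 mM, against 28.6, 30.1, 27.3, 29.1 and 26.98 FPKM in control. These groups overlapped by 1 library on each side. The difference was the smallest of the 6, at a log2 fold change of -0.18 (95% CI -0.29 to -0.07, adjusted p = 0.00723). Its adjusted p was 0.0681 when these 2 groups were fitted alone, in a range of 0.00249 to 0.645 over the alternatives.

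MDM2 and PHLDA3, which restrain p53 and the survival kinase AKT, differed from each other. PHLDA3 (chr1:201464383-201469237, minus strand), whose product competes with AKT for membrane lipids, rose more than any other of the 9 genes. Its libraries had 92.5, 101, 81.5, 84.7 and 122 FPKM in quizalofop-p-ethyl 1 mM, against 36.5, 33.8, 34.4, 33.6 and 29.6 FPKM in control. The lowest exposed library was above the highest control library, with a log2 fold change of 1.48 (95% CI 1.30 to 1.66, adjusted p = 6.3e-18). MDM2 (chr12:68808176-68850686, plus strand) had 68.1, 66.7, 21.2, 67.9 and 95.9 FPKM in quizalofop-p-ethyl 1 mM, against 101, 64.1, 39.6, 22.2 and 59.0 FPKM in control. The groups covered the same range, and the log2 fold change of 0.18 had a 95% CI of -0.50 to 0.85 (adjusted p = 0.74), so neither a rise like that of CDKN1A nor a fall was detectable at this spread.

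Of the genes of cell death, BBC3 (chr19:47220822-47232766, minus strand), which encodes PUMA, a BH3-only protein that frees BAX and BAK1 to act on mitochondria, rose. It had 32.6, 33.9, 31.8, 28.6 and 43.2 FPKM in quizalofop-p-ethyl 1 mM, against 21.5, 18.3, 14.1, 16.6 and 15.3 FPKM in control. No libraries overlapped, and the log2 fold change was 0.95 (95% CI 0.58 to 1.31, adjusted p = 4.49e-05). BAX (chr19:48954815-48961798, plus strand), which forms pores in the outer mitochondrial membrane, had 71.3, 70.4, 63.4, 61.2 and 74.1 FPKM in quizalofop-p-ethyl 1 mM, against 78.1, 39.6, 51.3, 57.2 and 56.1 FPKM in control. The highest of the 10 libraries was control replicate 1, and the other 4 control libraries were below all 5 exposed ones. The BAX difference did not pass with all libraries (log2 fold change 0.30, 95% CI -0.03 to 0.62, adjusted p = 0.166) and passed without control replicate 1 (0.42, adjusted p = 0.0457). An unnamed assembled transcript on the same strand overlaps BAX, at 3.75 FPKM in quizalofop-p-ethyl 1 mM and 14.8 FPKM in control, and with it added to the gene the log2 fold change was 0.02 (adjusted p = 0.928, the highest of the range 0.0457 to 0.928 over the alternatives). FAS (chr10:88990582-89015785, plus strand), a death receptor at the cell surface, had 10.9, 9.52, 9.54, 10.5 and 12.5 FPKM in quizalofop-p-ethyl 1 mM, against 11.8, 11.1, 11.3, 7.16 and 9.85 FPKM in control. These overlapped throughout (log2 fold change 0.06, 95% CI -0.41 to 0.52, adjusted p = 0.889).

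Both genes that link p53 to autophagy and metabolic control fell. TP53INP1 (chr8:94925972-94949411, minus strand), which encodes a stress-induced nuclear protein that promotes p53 activity and autophagy, had 15.4, 10.4, 11.8, 11.9 and 6.93 FPKM in quizalofop-p-ethyl 1 mM, against 22.9, 25.8, 26.6, 22.0 and 23.3 FPKM in control. All 5 exposed libraries were below all 5 control libraries, with a log2 fold change of -1.07 (95% CI -1.44 to -0.70, adjusted p = 7.84e-06). SESN1 (chr6:108986437-109094819, minus strand), which encodes sestrin 1, a protein that restrains the growth kinase mTORC1 when amino acids are short, had 9.42, 9.04, 10.1, 10.3 and 6.42 FPKM in quizalofop-p-ethyl 1 mM, against 12.1, 15.2, 15.6, 12.3 and 14.0 FPKM in control. Again the groups did not overlap (log2 fold change -0.57, 95% CI -0.84 to -0.30, adjusted p = 0.000657). The SESN1 call was lost when the library left out elsewhere was kept, with all 50 libraries in the fit (adjusted p = 0.305). In all, the groups did not overlap for 5 of the 9 genes, against 23.9% of all genes tested.

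**Figure D2:**
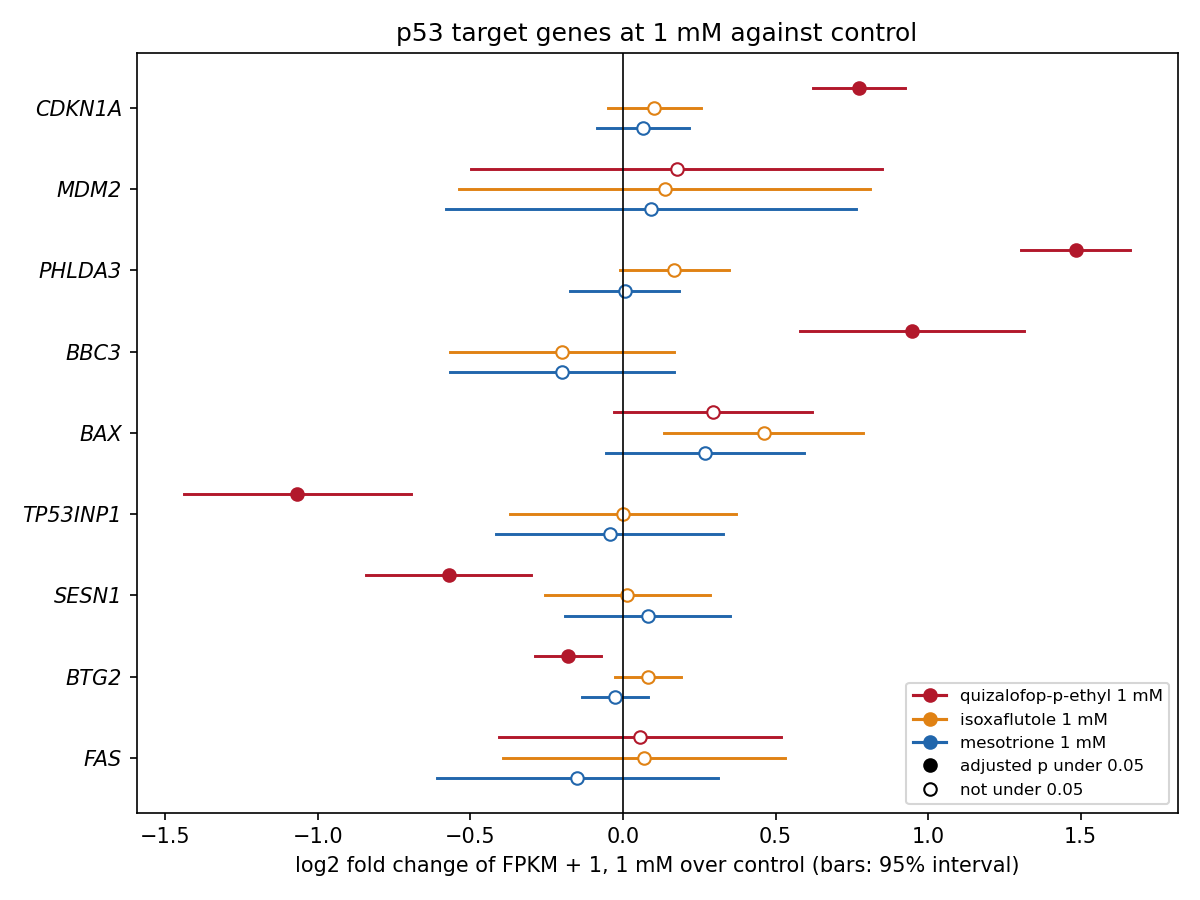
Log2 fold change against control, on the log2(FPKM + 1) scale (x axis), of the 9 genes (y axis) at 1 mM of each compound; points are limma estimates, filled where the adjusted p was under 0.05, and bars their 95% confidence intervals. The intervals of 6 genes exclude 0 for quizalofop-p-ethyl, PHLDA3 lies farthest to the right at 1.48 and TP53INP1 farthest to the left at -1.07.

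Other measures moved with these values in the libraries of quizalofop-p-ethyl 1 mM. Among all genes tested, 19.8% were called lower against control, beside which the marker counts here stand. All 11 hepatocyte markers fell, and their summed level was 229 to 5619 FPKM, against 20183 to 23747 FPKM in control. In bulk RNA, fewer cells of a type and less RNA per cell cannot be told apart. Of the other markers, 3 of 5 biliary genes tested fell (sum 85.5 to 185 FPKM against 634 to 725 FPKM in control), as did 4 of 4 mesenchymal genes (3.22 to 17.1 against 49.3 to 61.7 FPKM) and 2 of 3 leukocyte genes (2.72 to 15.6 against 8.75 to 36.2 FPKM). EPCAM, COL1A2 and PTPRC were at 0 in all 5 exposed libraries. The part of these markers in the changes of the p53 targets was not tested.

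One library stood at the end of most of these ranges. Replicate 5 of quizalofop-p-ethyl 1 mM had the lowest summed hepatocyte markers of its group, at 229 FPKM against 1516 to 5619 FPKM in the other 4, and ALB at 56.6 FPKM. The same library had the highest CDKN1A, PHLDA3, BBC3, MDM2, BAX, FAS and BTG2 and the lowest TP53INP1 and SESN1 of the 5. Without it, all 6 genes called in the comparison with control were still called. Genes of the integrated stress response, the pathway in which ATF4 answers amino acid or protein-folding stress, were summed in the same libraries. They had 1045, 786, 656, 697 and 928 FPKM in replicates 1 to 5 of quizalofop-p-ethyl 1 mM, against 94.6 to 121 FPKM in control.

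**Figure D3:**
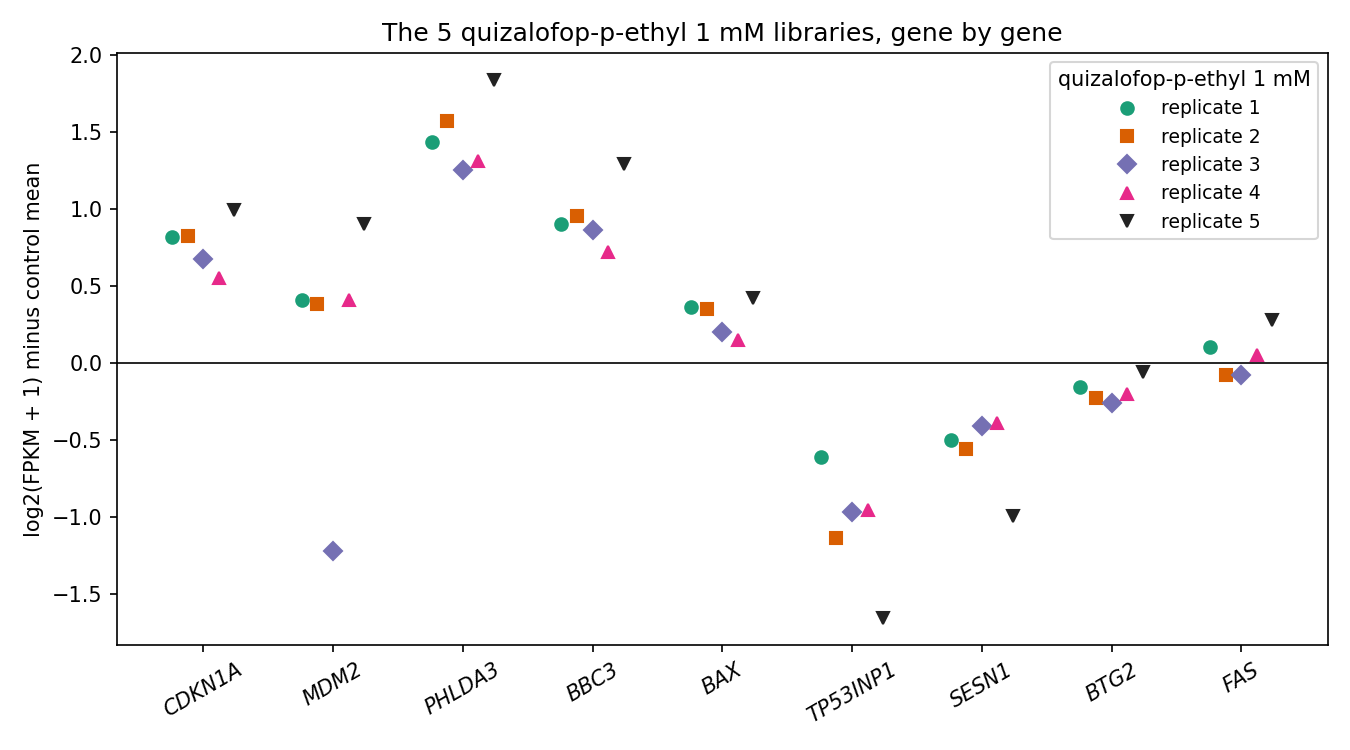
Difference of each of the 5 quizalofop-p-ethyl 1 mM libraries from the control mean on the log2(FPKM + 1) scale (y axis), for the 9 genes (x axis); each symbol is a replicate. Replicate 5 is at the top for CDKN1A, PHLDA3 and BBC3 (448, 122 and 43.2 FPKM) and at the bottom for TP53INP1 and SESN1 (6.93 and 6.42 FPKM).

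Isoxaflutole and mesotrione at 1 mM gave no call among the 9 genes. These comparisons share their 5 control libraries with that of quizalofop-p-ethyl. For isoxaflutole, 0 of 9 passed in limma and 1 of 9, BAX, had an unadjusted p under 0.05, where 2.42% of all genes tested were called. BAX averaged 77.1 ± 11.5 FPKM in isoxaflutole 1 mM and 56.4 ± 13.9 FPKM in control (SD, n = 5 each), a log2 fold change of 0.46 (95% CI 0.14 to 0.79, adjusted p = 0.145). It passed without control replicate 1, at 0.58 (adjusted p = 0.0462, in a range of 0.0462 to 1 over the alternatives). PHLDA3 averaged 37.9 ± 3.88 FPKM in isoxaflutole 1 mM and 33.6 ± 2.49 FPKM in control, with overlapping libraries and an adjusted p of 0.438. For mesotrione, 0 of 9 passed in limma and 0 had an unadjusted p under 0.05, where 0.879% of all genes tested were called, and the smallest adjusted p of the 9 was 0.651. For CDKN1A the interval of the log2 fold change was -0.05 to 0.25 for isoxaflutole and -0.09 to 0.22 for mesotrione, so a rise of the size seen with quizalofop-p-ethyl lay outside both.

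Markers moved less at 1 mM of these compounds. The summed hepatocyte markers were 10399 to 19322 FPKM in isoxaflutole 1 mM and 12683 to 20928 FPKM in mesotrione 1 mM, against 20183 to 23747 FPKM in control, with 1 of 11 markers called lower in each. Among all genes tested, 2.42% were called with isoxaflutole and 0.879% with mesotrione, in either direction. The mesenchymal markers summed to 18.8 to 24.7 FPKM in isoxaflutole and 19.7 to 26.9 FPKM in mesotrione, against 49.3 to 61.7 FPKM in control. Of 4 mesenchymal genes tested, 3 were called lower with isoxaflutole and 2 with mesotrione. The biliary markers summed to 482 to 609 FPKM in isoxaflutole and 423 to 561 FPKM in mesotrione, against 634 to 725 FPKM in control. Of 5 biliary genes tested, 1 was called lower and 1 higher with isoxaflutole, and 2 lower with mesotrione. Of 3 leukocyte genes tested, 0 were called with isoxaflutole and 1 lower with mesotrione.

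At 0.1 and 10 uM, none of the 9 genes was called for any compound in limma, where 0 to 2 genes of all 24222 were called (at most 0.00826%, for quizalofop-p-ethyl 10 uM). Unadjusted p under 0.05 was reached by MDM2 at mesotrione 10 uM and by BBC3 at quizalofop-p-ethyl 0.1 uM, and by none of the 9 in the other 4 comparisons at these doses. MDM2 averaged 83.3 ± 10.6 FPKM in mesotrione 10 uM and 57.3 ± 29.7 FPKM in control (SD, n = 5 each), with overlapping libraries (log2 fold change 0.69, 95% CI 0.02 to 1.36, adjusted p = 1). BBC3 averaged 12.7 FPKM in quizalofop-p-ethyl 0.1 uM and 17.2 FPKM in control (log2 fold change -0.44, 95% CI -0.80 to -0.07, adjusted p = 1).

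The order of the 10 group means depended on the gene. CDKN1A was highest in quizalofop-p-ethyl 1 mM at 386 FPKM, followed by isoxaflutole 1 mM at 241 FPKM, mesotrione 1 mM at 235 FPKM and quizalofop-p-ethyl 10 uM at 234 FPKM. Control had 225 FPKM, and mesotrione 10 uM was lowest at 214 FPKM. Below quizalofop-p-ethyl 1 mM, neighbours in this order differed by less than their spread. PHLDA3 ran from 96.5 FPKM in quizalofop-p-ethyl 1 mM to 37.9 FPKM in isoxaflutole 1 mM and then to between 35.01 and 31.1 FPKM in the other 8 groups. For BBC3 the other 9 groups lay between 12.7 and 18.2 FPKM, for TP53INP1 between 23.5 and 27.4 FPKM, for SESN1 between 13.5 and 16.4 FPKM and for BTG2 between 27.2 and 30.1 FPKM. MDM2 was highest in mesotrione 10 uM and lowest, at 53.8 FPKM, in isoxaflutole 0.1 uM, and quizalofop-p-ethyl 1 mM was the third of 10. BAX ranged from 56.3 FPKM in quizalofop-p-ethyl 10 uM to 77.1 FPKM in isoxaflutole 1 mM, and FAS from 9.74 FPKM in mesotrione 1 mM to 12.96 FPKM in isoxaflutole 10 uM.

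Replicates of a group differed far more for some of these genes than for others. Over the 9 groups other than quizalofop-p-ethyl 1 mM, the coefficient of variation within a group was 12.7% to 51.9% for MDM2 (median 29.7%). Its median was 23.3% for BBC3, 17.4% for BAX, 14.6% for TP53INP1, 14.4% for FAS, 11.8% for SESN1 and 9.08% for PHLDA3. The coefficient ranged from 2.70% to 12.1% for CDKN1A and from 2.69% to 8.88% for BTG2, so a change of a given size was more readily detected in those.

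The 3 compounds were compared with each other at equal dose, 9 pairs in all, with the adjustment made over genes within each pair. At 1 mM, quizalofop-p-ethyl and isoxaflutole differed in 6 of the 9 genes, where 29.7% of all genes tested were called (11.7% higher, 18.1% lower). CDKN1A, PHLDA3 and BBC3 were higher with quizalofop-p-ethyl by 0.67, 1.32 and 1.15 in log2 (adjusted p from 4.35e-16 to 1.99e-06, limma), and TP53INP1, SESN1 and BTG2 were lower, at -1.07, -0.59 and -0.26. The libraries of the 2 groups did not overlap for any of these 6 genes, against 20.8% of all genes tested whose groups did not overlap. BTG2 averaged 24.96 ± 1.43 FPKM in quizalofop-p-ethyl and 30.1 ± 1.61 FPKM in isoxaflutole (SD, n = 5 each, adjusted p = 0.00013). With all 50 libraries in the limma fit the calls of CDKN1A, SESN1 and BTG2 were lost (adjusted p = 0.0751, 0.316 and 0.4999).

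Quizalofop-p-ethyl and mesotrione at 1 mM also differed in 6 of 9 genes, where 30.2% of all genes tested were called (12.6% higher, 17.6% lower). The log2 differences were 0.71 for CDKN1A, 1.48 for PHLDA3, 1.15 for BBC3, -1.02 for TP53INP1 and -0.65 for SESN1, all 5 with no overlap of libraries, against 21.3% of all genes tested. BTG2 was lower by -0.16 (adjusted p = 0.0241) with overlapping libraries. The BTG2 call was lost without mesotrione replicate 1 (adjusted p = 0.0847) and without quizalofop-p-ethyl replicate 2 (0.0576) or replicate 3 (0.0713), in a range of 0.00889 to 0.72 over the alternatives. With all 50 libraries the calls of CDKN1A and SESN1 were lost too (adjusted p = 0.0569 and 0.245). These comparisons and those with control share the quizalofop-p-ethyl libraries.

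Isoxaflutole and mesotrione at 1 mM differed in 0 of 9 genes in limma, with 0 at an unadjusted p under 0.05, where 0.256% of all genes tested were called. The interval of the log2 difference was -0.11 to 0.19 for CDKN1A, -0.02 to 0.34 for PHLDA3 and -0.63 to 0.72 for MDM2. At 0.1 and 10 uM none of the 9 genes was called between any pair of compounds in limma, with 0 or 1 gene per pair at an unadjusted p under 0.05, where 0.0124% of all genes tested were called between quizalofop-p-ethyl and mesotrione at 10 uM, 0.00413% between quizalofop-p-ethyl and isoxaflutole at 10 uM and 0% in the other 4 pairs.

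Between doses of 1 compound, 5 of the 9 genes differed between quizalofop-p-ethyl 1 mM (5 libraries) and 10 uM (4 libraries), where 31.2% of all genes tested were called (11.6% higher, 19.6% lower). CDKN1A, PHLDA3 and BBC3 were higher and TP53INP1 and SESN1 lower at 1 mM, all 5 with no overlap of libraries, against 26.6% of all genes tested. With the fifth 10 uM library kept, TP53INP1 (-0.62, adjusted p = 0.138) and SESN1 (0.0119, adjusted p = 0.987) were no longer called and BAX was (1.11, adjusted p = 0.0339). BTG2 had an adjusted p of 0.0531 (log2 difference -0.14), which became 0.0212 without replicate 5 of quizalofop-p-ethyl 1 mM, the lowest of the alternatives, whose range ran to 0.301. For isoxaflutole, 0 of 9 genes differed between 1 mM and 10 uM in limma and 3 had an unadjusted p under 0.05, where 2.84% of all genes tested were called. PHLDA3 averaged 37.9 FPKM at 1 mM and 31.1 FPKM at 10 uM with no overlap of libraries, as for 5% of all genes tested (log2 difference 0.27, adjusted p = 0.088). For mesotrione, 0 of 9 genes differed, with 0 at an unadjusted p under 0.05, where 0.97% of all genes tested were called.

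The table lists 96 transcripts for the 9 genes, and the split among them is an estimate of the assembler. Tested one by one at quizalofop-p-ethyl 1 mM against control, 8 of the 49 transcripts past the filter were called, 5 higher and 3 lower, where 11.9% of all transcripts tested were called. For PHLDA3, ENST00000367311 held 92.2% of the gene's FPKM in quizalofop-p-ethyl 1 mM and 93.5% in control and rose with it (log2 fold change 1.46, adjusted p = 3.3e-17). For BBC3, ENST00000439096 and ENST00000598636 rose, by 0.93 and 1.10 (adjusted p = 0.0107 and 0.00447). Of the 2 transcripts listed for BTG2, ENST00000290551 held 100% of its FPKM at 1 mM of each compound and in control.

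CDKN1A was less even. Its main transcript, ENST00000244741, averaged 283 ± 110 FPKM in quizalofop-p-ethyl 1 mM and 205 ± 15.8 FPKM in control (SD, n = 5 each) and was not called (log2 fold change 0.37, adjusted p = 0.655). The transcript ENST00000405375 had 29.998, 178, 23.4, 140 and 28.1 FPKM in quizalofop-p-ethyl 1 mM and averaged 12.03 ± 2.89 FPKM in control. It was called (log2 fold change 2.13, 95% CI 0.79 to 3.48, adjusted p = 0.0265), with replicates 2 and 4 far above the other 3, and in those it held 44.8% and 42.5% of the gene. Both start and end at nearly the same positions, and the sum over the gene was above every control library in all 5 exposed libraries.

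In TP53INP1, ENST00000448464 was called lower (log2 fold change -1.505, adjusted p = 0.000492), while the almost equally long ENST00000342697 was not called (-0.46, adjusted p = 0.276). Whether these transcripts differed from each other in their change was not tested. In SESN1, ENST00000356644 was called lower, at 4.44 ± 2.14 FPKM in quizalofop-p-ethyl 1 mM and 9.65 ± 3.97 FPKM in control (log2 fold change -0.95, adjusted p = 0.0449). Its libraries overlapped, at 1.38 to 6.33 FPKM in quizalofop-p-ethyl 1 mM and 2.71 to 12.6 FPKM in control. Its share of the gene ran from 22.5% to 92.5% among the control libraries. In BAX, ENST00000502487 fell (-1.47, adjusted p = 0.0425), and ENST00000345358 averaged 38.2 FPKM in quizalofop-p-ethyl 1 mM and 17.1 FPKM in control without passing (adjusted p = 0.199). In control, replicate 1 alone had 52.9 FPKM of ENST00000345358 and the other 4 had 4.25 to 11.5 FPKM.

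MDM2 is transcribed from a pair of start regions, and the p53 response element match printed above lies between them, just before the second. Transcripts from the first region (7 transcripts, starts from 68808176 to 68808464) summed to 25.6 ± 11.8 FPKM in quizalofop-p-ethyl 1 mM and 19.4 ± 7.91 FPKM in control (SD, n = 5 each). Transcripts from the second region (22 transcripts, starts from 68809017 to 68809227) summed to 34.6 ± 21.0002 FPKM in quizalofop-p-ethyl 1 mM and 33.6 ± 22.2 FPKM in control. The share of the second region was 52.4% in quizalofop-p-ethyl 1 mM and 55.9% in control, with single libraries between 36.8% and 70.97% in quizalofop-p-ethyl 1 mM and between 46.8% and 68.3% in control, so the shares overlapped. Single MDM2 transcripts varied most: ENST00000539479, from the second region, had 1.45 to 48.6 FPKM in quizalofop-p-ethyl 1 mM, 1.44 to 39.9 FPKM in isoxaflutole 1 mM and 2.13 to 51.2 FPKM in mesotrione 1 mM, against 0.780 to 13.5 FPKM in control. Transcripts that start beside the printed matches of FAS and SESN1 were low, at 0.911 FPKM in quizalofop-p-ethyl 1 mM and 0.935 FPKM in control for FAS, and at 0.0334 FPKM in quizalofop-p-ethyl 1 mM and 0.0449 FPKM in control for SESN1.

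**Figure D4:**
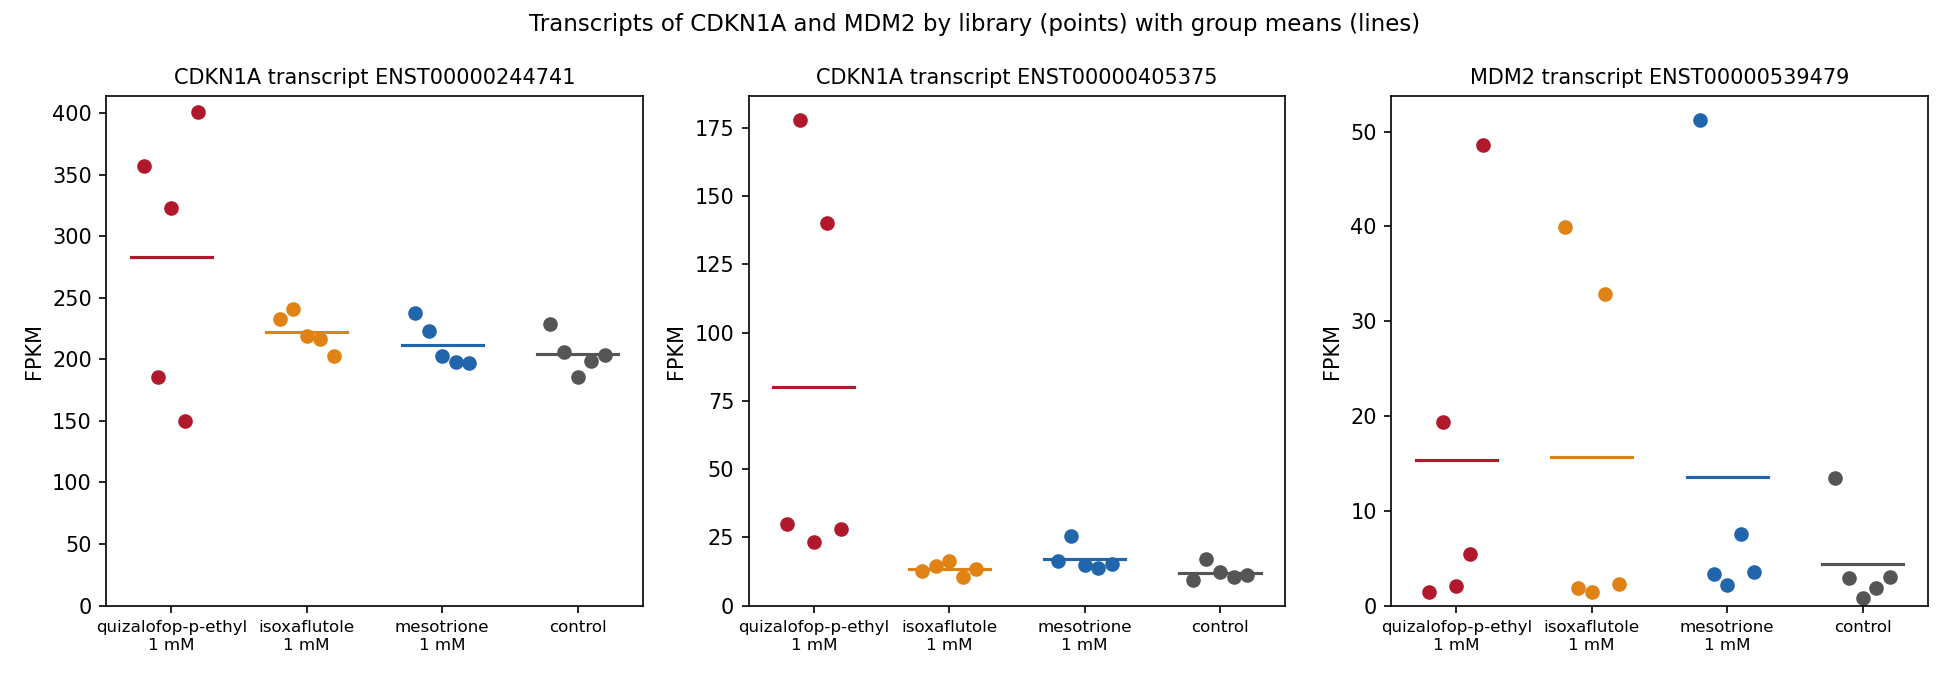
FPKM (y axis) of 2 transcripts of CDKN1A and 1 of MDM2 at 1 mM of each compound and in control (x axis); points are libraries and lines group means. The CDKN1A transcript ENST00000405375 is far higher in 2 of the 5 quizalofop-p-ethyl libraries (178 and 140 FPKM) than in the other 3.

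Some of these genes share their locus with other transcripts that the counting could not fully separate. AC025423.2 overlaps MDM2 on the same strand, at 45.7 FPKM in quizalofop-p-ethyl 1 mM and 39.7 FPKM in control, a level near that of MDM2 itself, and 4 unnamed transcripts there summed to 11.4 FPKM in quizalofop-p-ethyl 1 mM and 15.6 FPKM in control. In BBC3, MIR3191 was listed at 9.36 FPKM in quizalofop-p-ethyl 1 mM and 1.56 FPKM in control. On the strand of BBC3, 2 unnamed transcripts summed to 10.8 FPKM in quizalofop-p-ethyl 1 mM and 8.51 FPKM in control. The unnamed transcripts at MDM2 and BBC3 were not added to these genes in any alternative. On the opposite strand to FAS, unnamed transcripts summed to 41.4 FPKM in quizalofop-p-ethyl 1 mM and 48.9 FPKM in control, above FAS itself. The library preparation was stranded, which separates these from FAS as far as strand was kept. On the strand of FAS, an unnamed transcript had 0.535 FPKM in quizalofop-p-ethyl 1 mM and 0.221 FPKM in control. The values of MDM2, BAX and BBC3 are uncertain to that extent, and those of FAS only as far as the strands were not kept apart.

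The genes around these 9 were read from 10 lists of textbook members, against the 13% of all genes tested that were called higher and the 19.8% called lower at quizalofop-p-ethyl 1 mM. Among the regulators of p53, 1 of 10 genes tested rose, a share near that of all genes, and 4 fell (list median log2 fold change -0.18, all genes -0.08). HIPK2, a kinase that phosphorylates p53, was called at 1.14 (adjusted p = 0.0302). The HIPK2 call was lost with these 2 groups fitted alone, with all 50 libraries and with no filter. It was also lost without control replicate 3, 4 or 5 or quizalofop-p-ethyl replicate 2, 3 or 4 (range over the alternatives 0.59 to 1.46, adjusted p 0.00637 to 0.134). TP73, which encodes the transcription factor p73, fell (-1.46), and so did the checkpoint kinase genes CHEK2 (-0.66) and CHEK1 (-0.66). The call of CHEK1 was lost with all 50 libraries in the fit (adjusted p = 0.0526). MDM4, the partner of MDM2 that holds p53 inactive, averaged 6.44 FPKM in quizalofop-p-ethyl 1 mM and 5.03 FPKM in control (adjusted p = 0.156). PPM1D, a phosphatase that p53 induces and that shuts the response off, averaged 3.95 FPKM in quizalofop-p-ethyl 1 mM and 4.62 FPKM in control (adjusted p = 0.0592). PPM1D was called lower under 5 of 18 alternatives, among them median-ratio scaling and a block for runs of sample numbers (adjusted p 0.032 to 0.647). MDM4 was called higher under 1 of 18, without quizalofop-p-ethyl replicate 5 (adjusted p = 0.0497).

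**Figure D5:**
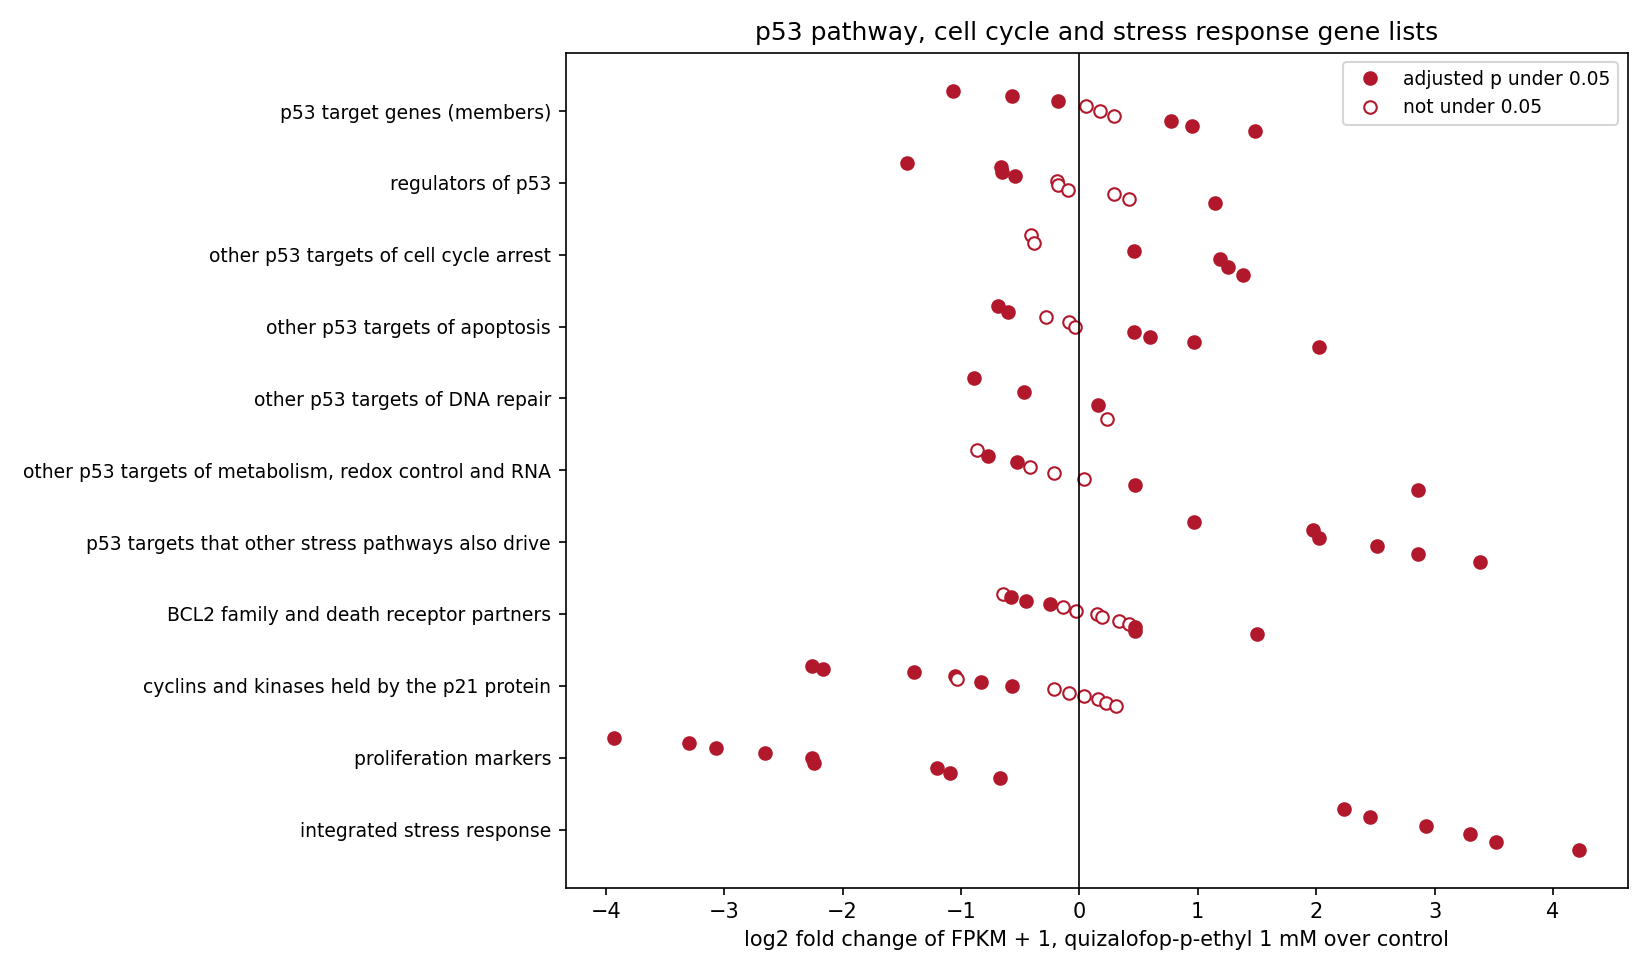
Log2 fold change of quizalofop-p-ethyl 1 mM against control, on the log2(FPKM + 1) scale, for the tested genes of each list (rows); each point is a gene, filled where its adjusted p was under 0.05. All 6 genes of the integrated stress response and all 6 targets shared with other stress pathways lie above 0, and the proliferation markers lie below it.

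Across 31 further p53 targets, 30 were tested at quizalofop-p-ethyl 1 mM, of which 14 rose, 6 fell and 10 did not pass, with a median log2 fold change of 0.10 against -0.08 for all genes. Among all genes tested 13% were called higher and 19.8% lower, so the share of these targets that fell was near that of all genes. Of the 6 genes of cell cycle arrest 4 rose: PLK3 (log2 fold change 1.38), GADD45A (1.26, with 71.2 FPKM in quizalofop-p-ethyl 1 mM and 28.3 FPKM in control), E2F7 (1.18) and SFN (0.46). The call of SFN was lost with these 2 groups fitted alone and with all 50 libraries. It was also lost without control replicate 3 or 4 or quizalofop-p-ethyl replicate 1 (0.33 to 0.58 over the alternatives, adjusted p 0.00204 to 0.288). Of the 9 genes of apoptosis tested 4 rose and 2 fell. PMAIP1, which encodes the BH3-only protein NOXA, rose by 2.02 and the death receptor gene TNFRSF10B by 0.97, while PERP fell (-0.68) and so did APAF1 (-0.60), the scaffold of the apoptosome. The call of APAF1 was lost with all 50 libraries and with no filter. It was also lost without any 1 of control replicates 1 to 4 or quizalofop-p-ethyl replicates 3 to 5 (-0.70 to -0.51, adjusted p 0.00447 to 0.222). The calls of TNFRSF10B and PERP were lost with all 50 libraries in the fit (adjusted p = 0.182 and 0.123).

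Of 4 genes of DNA repair, DDB2 (-0.89) and POLH (-0.47) fell. XPC was called higher at 0.16 (adjusted p = 0.0478). The XPC call was lost with these 2 groups fitted alone, all 50 libraries, no filter, or no trend or robust settings. It was also lost without control replicate 3, 4 or 5 or quizalofop-p-ethyl replicate 1, 2, 3 or 5 (0.14 to 0.21, adjusted p 0.00995 to 0.773). Of 8 genes of metabolism, redox control and RNA, SESN2, a relative of SESN1 that ATF4 also drives, rose by 2.86, to 100.2 FPKM in quizalofop-p-ethyl 1 mM against 12.9 FPKM in control, and DRAM1, which promotes autophagy, was called higher at 0.47. The DRAM1 call was lost when these 2 groups were fitted alone or with all 50 libraries (0.31 to 0.61 over the alternatives, adjusted p up to 0.0881). ZMAT3 (-0.77) and FDXR (-0.52) fell. With all 50 libraries the calls of POLH, ZMAT3 and FDXR were lost (adjusted p = 0.288, 0.0922 and 0.137). SESN1 and SESN2 thus differed in direction in the same libraries.

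All 6 targets that other stress pathways also drive rose, with a list median of 2.27. GDF15, a secreted stress hormone, averaged 1238 ± 661 FPKM in quizalofop-p-ethyl 1 mM and 110 ± 35.4 FPKM in control (log2 fold change 3.38), and ATF3 rose by 2.51. Of these 6, SESN2, PMAIP1 and TNFRSF10B were also counted in the lists before. All 6 genes of the integrated stress response rose, with a median of 3.11: TRIB3 by 4.22, CHAC1 by 3.52, ASNS by 3.30 and PPP1R15A by 2.93. The part of this response in the changes of the p53 targets was not tested.

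In the BCL2 family and the death receptor partners of the cell death members, 3 of 13 genes tested rose and 3 fell, where 13% of all genes were called higher and 19.8% lower. BCL2, which opposes BAX, rose by 1.497 in log2 and CFLAR, which blocks caspases at death receptors, by 0.47, while MCL1 fell (-0.58). The calls of CFLAR and MCL1 were lost with all 50 libraries in the fit (adjusted p = 0.0793 and 0.164). BCL2L1 was called higher at 0.47, a call lost with all 50 libraries and with no filter. It was also lost without control replicate 1 or quizalofop-p-ethyl replicate 1 or 5 (0.36 to 0.81, adjusted p 0.00342 to 0.191). Of 13 cyclins, kinases and other cell cycle genes tested, 0 rose and 6 fell, among them CCNB1 (-2.26), CCNA2 (-2.17), E2F1 (-1.395) and PCNA (-1.05). All 9 proliferation markers tested fell, with a median of -2.26. The log2 fold change was -3.93 for RRM2, -3.29 for TOP2A, -3.07 for MKI67 and -2.66 for PLK1. The 9 include MCM5, whose call was lost with all 50 libraries and with no filter. It was also lost without control replicate 2, 3, 4 or 5 or any 1 quizalofop-p-ethyl replicate (-1.30 to -0.49, adjusted p 5.05e-08 to 0.237).

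At 1 mM of the other compounds, 1 of 30 further p53 targets was called for isoxaflutole and 0 for mesotrione in limma, with 4 and 3 at an unadjusted p under 0.05, where 2.42% and 0.879% of all genes tested were called. These counts are near the shares of all genes. The gene was SESN2 (log2 fold change 0.34, adjusted p = 0.041), a call lost under 12 of 18 alternatives. These were 2 groups alone, all 50 libraries, median-ratio scaling, no filter, no trend or robust settings, and unnamed transcripts added. It was also lost without control replicate 2 or 3 or isoxaflutole replicate 1, 2, 3 or 4 (0.23 to 0.38, adjusted p 0.029 to 1). In the integrated stress response, ASNS rose with isoxaflutole (0.75) and with mesotrione (0.86). CHAC1 was called with isoxaflutole at 0.66, a call lost with 2 groups alone and with all 50 libraries. It was also lost without control replicate 3 or isoxaflutole replicate 1 or 4 (0.57 to 0.90, adjusted p 0.00341 to 0.128). TRIB3 was called with mesotrione at 0.47, a call lost with 2 groups alone, with all 50 libraries and with no filter. It was also lost without control replicate 2, 3 or 5 or mesotrione replicate 1 or 2 (0.40 to 0.54, adjusted p 0.00795 to 0.307).

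The genes whose pattern over the 9 exposed groups was most like that of CDKN1A and MDM2 were found by the distance between their log2 fold changes against control, among 10909 genes. For CDKN1A, whose own profile has a length of 0.79, they were SEC61A1 (distance 0.07), SOWAHC (0.13) and RNF149 (0.13). SEC61A1 averaged 132 FPKM in quizalofop-p-ethyl 1 mM and 75.8 FPKM in control. For MDM2, with a length of 0.93, no gene came close: the nearest were PHF8 (0.43), CHD2 (0.44) and INPPL1 (0.47). Among the 9 genes the nearest pair was BTG2 and FAS (0.52), followed by TP53INP1 and SESN1 (0.60), and the farthest was PHLDA3 and TP53INP1 (2.59). All these distances share the same control libraries and are descriptions.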

How the data were processed

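Total RNA of HepaRG cells was sequenced as 75 bp paired reads in 3 pools after stranded, ribosomal RNA-depleted library preparation in random order, per the labels' protocols. The pool of each library is not stated. StringTie, HISAT and HISAT2 are the tools, and GRCh38 the build, that the submitters' processing notes list. The authors deposited FPKM per transcript for 239290 transcripts, 199173 of them named. In 20 columns the deposited values held a few numbers just below 0 (24 in all, set to 0), so these are recorded as a score that is otherwise FPKM. FPKM is relative to a library's total, so an abundant RNA that expands lowers the values of the rest. No depth is tabulated, and fragments per library were estimated from the FPKM step of 1 fragment in 11640 single-exon transcripts.

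Transcript FPKM were summed by gene name. The 24222 genes that reached 1 FPKM in 5 or more libraries were fitted on the log2(FPKM + 1) scale using limma 3.58.1 (R 4.3.3), with 1 mean per group over 49 libraries, trend and robust settings, and Benjamini-Hochberg adjustment within each of 21 comparisons (threshold 0.05). Distances, promoter matches and figures were made with Python 3.11.15, pandas 2.3.3, numpy 2.4.6 and matplotlib 3.10.9. The fit was tested on simulated data. Tried besides were 2 groups alone, all 50 libraries, median-ratio scaling, a pseudocount of 0.1, no filter, no trend or robust settings, unnamed transcripts added to their only named gene, single transcripts, a block for runs of sample numbers, and each replicate left out. One library of quizalofop-p-ethyl 10 uM (replicate 5) was left out, as the rule for these genes sets. Nothing in the labels ties the replicates to separate cultures, and p-values therefore measure only the spread between these libraries, which may be technical. Up to 4 called genes with the largest change were named per list, and MDM4 and PPM1D always. 1 gene of these lists is not reported here. The 9 genes and the lists were chosen with earlier results of these data known. Promoter sequences are from RefSeq (GRCh38.p14), and exons from GENCODE 29.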

Additional observations from a re-analysis of the deposited data

Results flagged for a closer look

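Of the 90 combinations of gene and group, 6 had a library that stood apart from the other 4 by Dixon's test at the 95% level, where chance flags about 1 in 20. PHLDA3 was 41.2 FPKM in mesotrione 1 mM replicate 1, against 31.2 to 32.7 FPKM in the other 4. PHLDA3 was 29.1 FPKM in isoxaflutole 10 uM replicate 1, against 31.3 to 31.95 FPKM, and BBC3 in the same library was 7.59 FPKM, against 14.8 to 17.5 FPKM. BAX was 56.6 FPKM in isoxaflutole 1 mM replicate 4, against 79.8 to 83.9 FPKM in the other 4. SESN1 was 18.95 FPKM in mesotrione 0.1 uM replicate 3, against 14.0 to 15.4 FPKM. FAS was 2.77 FPKM in isoxaflutole 0.1 uM replicate 5, against 11.04 to 13.4 FPKM. None of these libraries belongs to quizalofop-p-ethyl 1 mM or control.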

How the results depend on the processing

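CDKN1A, PHLDA3, BBC3 and TP53INP1 kept their direction and stayed past the threshold in quizalofop-p-ethyl 1 mM against control under all 18 alternatives, with log2 fold changes of 0.72 to 0.83, 1.39 to 1.54, 0.86 to 1.03 and -1.18 to -0.92. The alternative with unnamed transcripts added left CDKN1A, PHLDA3 and BBC3 unchanged (0.77, 1.48 and 0.95), so it did not test those genes. The calls of SESN1 and BTG2 in quizalofop-p-ethyl 1 mM against control were lost with all 50 libraries in the fit (adjusted p = 0.305 and 0.645). That fit adds the library left out elsewhere, whose 9 genes were at 0.0270 FPKM (FAS) to 33.3 FPKM (CDKN1A). With it, 3 of the 9 genes were called between quizalofop-p-ethyl and mesotrione at 1 mM and 3 between quizalofop-p-ethyl and isoxaflutole, against 6 in each without it, and the difference of SESN1 between quizalofop-p-ethyl 1 mM and 10 uM turned to 0.0119 (adjusted p = 0.987). In the same comparison TP53INP1 was no longer called (-0.62, adjusted p = 0.138), BAX was called (1.11, adjusted p = 0.0339) and BTG2 turned to 0.33 (adjusted p = 0.301), against -0.14 without that library. With isoxaflutole 1 mM, leaving out 1 replicate gave 0 to 1 called genes of the 9. Of 52 list genes called at quizalofop-p-ethyl 1 mM, 21 lost their call with all 50 libraries in the fit, and 44 kept it under every other alternative.

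Counts over all genes moved by over 1.5 times with all 50 libraries for quizalofop-p-ethyl (4645 against 7926), isoxaflutole (80 against 585) and mesotrione (26 against 213) at 1 mM. With 2 groups alone they were 296 for isoxaflutole and 88 for mesotrione, and with unnamed transcripts added 880 and 365. Leaving out 1 library also moved counts by over 1.5 times: to 382 from 585 for isoxaflutole 1 mM against control without isoxaflutole replicate 2, to 34 from 62 against mesotrione 1 mM and to 448 from 688 against isoxaflutole 10 uM without isoxaflutole 1 mM replicate 1, and to 152 from 235 for mesotrione 1 mM against 10 uM without mesotrione 1 mM replicate 2. Median-ratio scaling moved the split for isoxaflutole from 280 higher and 305 lower to 179 higher and 413 lower. The cause was not tested.

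Deviations of libraries of the same run of consecutive sample numbers correlated at 0.02 on average (from -0.12 to 0.14), against -0.00426 between runs. An average over all genes cannot decide whether runs pair the libraries. With the replicate block on these runs, the 6 calls against control stayed, and BTG2 was called between quizalofop-p-ethyl 1 mM and 10 uM (-0.15, adjusted p = 0.0453). At 1 mM against control, 343 genes were called for mesotrione and 810 for isoxaflutole, against 213 and 585 without the block.

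The 5 libraries per group limit the precision for MDM2 and FAS, whose values ranged from -0.11 to 0.53 and from -0.06 to 0.11 over the alternatives.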
